A study of Hordeum vulgare with 8 samples.

Results

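Insertions and deletions (indels) whose length was not a multiple of 3 bases were taken from a table of variant sites in transcripts of 2 barley lines. A site was chosen when it had passed the authors' filter, listed 1 other allele, and had a reference allele and other allele that differed in length by a number of bases not divisible by 3. Of the 140560 sites in the table, 860 met this rule, in 833 transcripts. They are called frame-shifting indels in the following, but the term holds only for sites that lie in coding sequence. The start and end of the coding sequence of these transcripts were not used here, so this was not tested for any site. Beside them stood 962 indels with a length that is a multiple of 3 (in-frame indels) and 64921 single-nucleotide sites, all of them passing and with 1 other allele.

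The table was made from RNA of shoot apices of the near isogenic lines (NILs) e35RM and e35RD, which derive from the same recombinant family, DM1-e35R. Their background is mostly but not wholly Morex. The paper reports that most of the genes it could assign show the Morex allele, and that the others come from introgressed wild barleys. It describes the lines as differing only in the QTL region. e35RM carried the Morex allele at the awn length QTL AL7.1 and had long awns, and e35RD carried the allele of the wild barley HID 382 (D) and had short awns. Both lines shared the wild allele of vrs1, which gives a 2-rowed spike. Apices were collected at Waddington stage 5.5 from greenhouse plants in days of 16 h at 22 °C and nights of 8 h at 18 °C, and 10 apices were pooled for a sample. Each line had 4 libraries, but the table has 1 column per line. The column names give only the line, so each column was taken to hold the 4 libraries pooled. No value therefore has a replicate error, and intervals below are 95% Clopper-Pearson intervals that cover counting error only. The table holds no expression values, so the tissue was not checked against marker genes.

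A coding sequence is read in steps of 3 bases. An indel of any other length moves all codons after it into another frame, which usually changes the rest of the protein and often brings an early stop codon. In a self-fertilised cereal most genes carry the same allele on both chromosome copies. RNA reads of a transcript can also differ in length where it is spliced in more than 1 way, since most plant introns begin with GT and end with AG and splice sites may lie a few bases apart.

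The changed bases of the sites that the results turn on are given first. Each run begins with the reference base before the change in lower case, followed in capitals by the bases inserted or deleted in the other allele. Positions are those of the lower case base, numbered from the 5′ end of the reference transcript, which is position 1. The first set shows changes found with both alleles in both lines, chosen as the deepest site of a frequent string or for its read depth.
AK364926, insertion at 235: tGTAG
AK361833, deletion at 228: cGTAG
AK376040, insertion at 1285: aAGGC
AK359979, deletion at 242: tAGGC
MLOC_54762.1, insertion at 465: gAGTGC
MLOC_55250.3, insertion at 792: cGTAAG
MLOC_61041.1, deletion at 297: cGGTAA
AK373825, deletion at 1113: tAGCAG
AK252401.1, insertion at 423: cA

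The second set shows changes carried by nearly all reads of both lines that were assigned to an allele, taken from the deepest such sites and from the longest.
AK368716, deletion at 161: tATCC
MLOC_76577.1, deletion at 126: aTCTC
MLOC_65700.1, insertion at 1512: cGG
AK367505, insertion at 298: cG
AK371424, deletion at 313: gAGTTGAACCTT
MLOC_25946.1, deletion at 238: aGGTGGGGCTGC
MLOC_39764.1, insertion at 97: tGGAAGGGATTTGG

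The third set shows the changes in transcripts of the QTL region on 7HL.
MLOC_44262.3, deletion at 466: aGTAG
MLOC_44727.1, deletion at 191: aAG
MLOC_49446.1, insertion at 122: aGCTCT
MLOC_53183.1, insertion at 129: tC

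Frame-shifting indels made up 47.2% of the 1822 passing indels (44.9 to 49.5%). The share was 51.3% in transcripts with an MLOC identifier (612 of 1194, 48.4 to 54.1%) and 39.5% in transcripts with an AK identifier, which come from cDNA clones (248 of 628, 35.6 to 43.4%). Insertions were somewhat more frequent than deletions, with 483 against 377. Among in-frame indels the order was the opposite, with 317 insertions and 645 deletions. A gain of 1 base over a multiple of 3 was left by 443 of the changes, and a gain of 2 bases, which is the same frame as a loss of 1 base, by 417.

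Changes of 1 base were most frequent, with 211 insertions and 164 deletions. They made up 43.6% of all frame-shifting indels (40.3 to 47.0%). The number did not fall steadily with length. There were 107 changes of 2 bases, but 149 of 4 bases and 128 of 5 bases. A further 48 changes had 7 bases and 32 had 8 bases, and 21 were longer. The longest was an insertion of 13 bases in MLOC_39764.1.

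**Figure D1:**
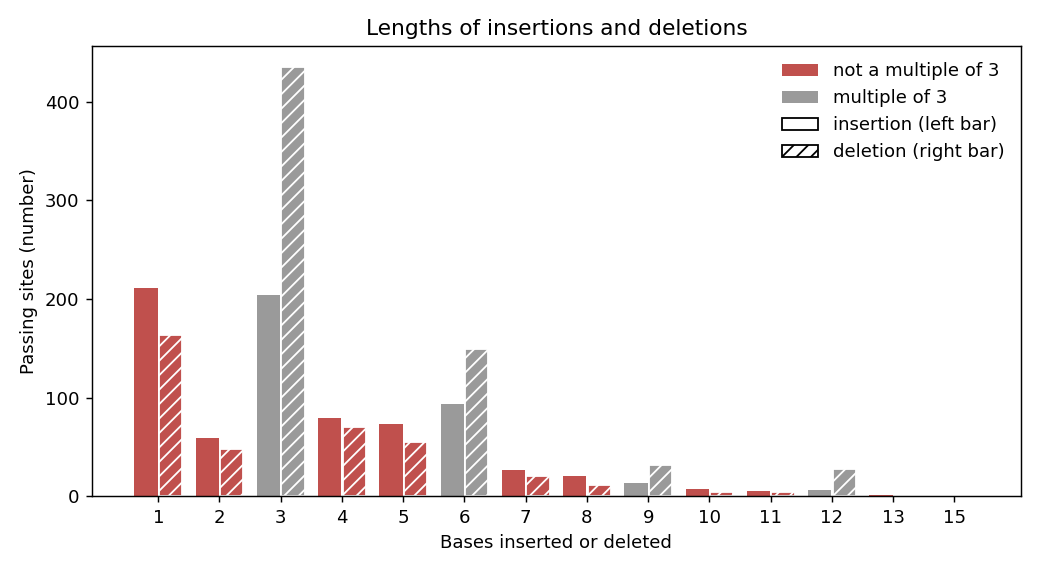
Number of passing indels (y axis) by the number of bases inserted or deleted (x axis), with insertions as the left bar and deletions as the hatched right bar of each length. Red bars are lengths that are not a multiple of 3, where 149 changes of 4 bases and 128 of 5 bases exceeded the 107 changes of 2 bases, and grey bars are in-frame lengths.

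Read depth set how many of these sites could be compared. At least 5 reads in each line were found at 606 of the 860 sites, in 588 transcripts. A further 45 sites had this depth in e35RM only and 52 in e35RD only, 157 had it in neither line, and 22 of these had no read at all. The share of sites with enough reads was 70.5% (67.3 to 73.5%), against 83.5% of in-frame indels (81 to 85.8%) and 59.98% of single-nucleotide sites (59.6 to 60.4%). At the 606 sites a median of 21 reads covered e35RM, with a range of 5 to 113, and a median of 22 reads covered e35RD, with a range of 5 to 109. All counts of genotypes below refer to these 606 sites unless stated otherwise.

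Both lines were called with both alleles at 295 of the 606 sites, which was the most frequent class (48.7%, 44.6 to 52.7%). At 206 sites both lines were homozygous for the other allele (34.0%, 30.2 to 37.9%). Both lines were homozygous for the reference allele at 62 sites (10.2%), which the table lists all the same. The columns of a Morex sample were not used. Whether Morex carried the other allele at the 62 or the 206 sites was therefore not examined. Whether the 206 sites lie in wild barley introgressions that both lines share was not tested either. At 43 sites (7.10%) 1 line had both alleles and the other was homozygous. Calls with both alleles in both lines were found at 38.5% of in-frame indels (309 of 803, 35.1 to 41.9%) and at 9.71% of single-nucleotide sites (3780 of 38937, 9.42 to 10.01%). Homozygous calls for the other allele in both lines were found at 41.5% of in-frame indels and 57.5% of single-nucleotide sites. These classes were set side by side without a test, since sites of a transcript are linked.

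No frame-shifting indel had opposite homozygous calls in the lines. The count of 0 of 606 allows a share of up to 0.495%, taken as 3 counts of 606, or 0.607% by the Clopper-Pearson interval, and over all 40346 sites of the 3 classes together the share was 0.404% (163 sites). Both limits lie above this background, so the count of 0 does not set frame-shifting indels apart. In-frame indels had 4 such sites, 3 of them in transcripts of the QTL region. Only 2 of the 606 frame-shifting sites lay in listed transcripts of that region. When fewer reads were allowed, 4 frame-shifting indels had opposite calls. At MLOC_40290.3 position 250, an insertion of 5 bases, all 5 reads of e35RM carried the insertion and the only read of e35RD did not. The other changes rested on 1 to 3 reads per line. They were an insertion of 5 bases at MLOC_20749.2 position 156, a deletion of 2 bases at MLOC_32809.1 position 87 and a deletion of 2 bases at MLOC_36563.1 position 155, with the other allele in e35RD at each.

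Genotype calls differed with the length of the change. The grouping of lengths was made after the values were seen. Of changes of 1 or 2 bases, 165 of 311 were homozygous for the other allele in both lines (53.1%, 47.3 to 58.7%) and 83 had both alleles in both lines (26.7%, 21.9 to 32.0%). Of changes of 4, 5, 7 or 8 bases, 210 of 285 had both alleles in both lines (73.7%, 68.2 to 78.7%) and 37 were homozygous for the other allele (13%, 9.31 to 17.4%). The share with both alleles was 69.8% at 4 bases, 76.0% at 5 bases, 78.0% at 7 bases and 75% at 8 bases. In-frame lengths in between had lower shares, with 45.0% at 3 bases and 26.8% at 6 bases. The longest frame-shifting changes, of 10 to 13 bases, had both alleles in both lines at 2 of 10 sites.

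**Figure D2:**
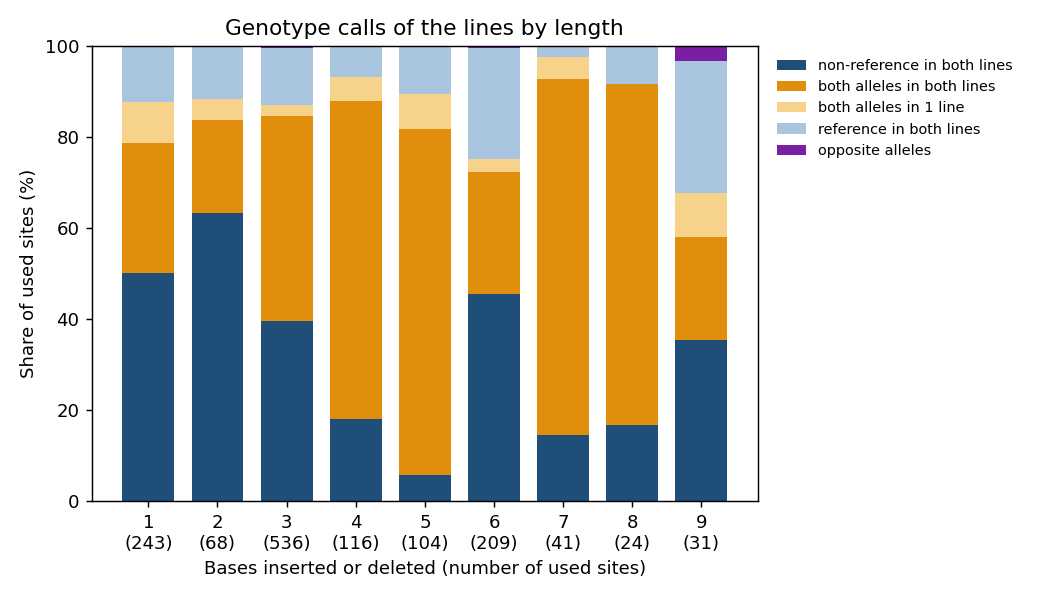
Share of sites with at least 5 reads in each line (y axis, %) in each genotype class, by the number of bases inserted or deleted (x axis, with the number of sites in brackets). Calls with both alleles in both lines (orange) made up 69.8 to 78.0% of the changes of 4, 5, 7 and 8 bases and 28.4 and 20.6% of those of 1 and 2 bases.

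Insertions and deletions were also compared within these lengths. Among changes of 4, 5, 7 or 8 bases, both alleles in both lines were found at 79.6% of insertions (117 of 147, 72.2 to 85.8%) and 67.4% of deletions (93 of 138, 58.9 to 75.1%). Among changes of 1 base the share was 32.9% for insertions (46 of 140, 25.2 to 41.3%) and 22.3% for deletions (23 of 103, 14.7 to 31.6%). The intervals of insertions and deletions overlapped in both length groups. Both alleles in both lines were called at 46.7% of sites in MLOC transcripts (185 of 396) and 52.4% in AK transcripts (110 of 210). Reference calls in both lines were found at 52 sites in MLOC transcripts and 10 in AK transcripts.

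The letters of the changed bases also differed between the genotype classes. The strings were searched for AG and for GT after they had been seen, as were the reverse complements CT and AC. A string was read as a circle, with its last base followed by its first, because the start of an indel in a short repeat is arbitrary. AG and GT may share a G. Of the 210 changes of 4, 5, 7 or 8 bases with both alleles in both lines, 177 held AG (84.3%, 78.6 to 88.9%) and 118 held GT (56.2%, 49.2 to 63.0%), and 202 held at least 1 of these. Of the 37 changes of these lengths that were homozygous for the other allele in both lines, 16 held AG (43.2%, 27.1 to 60.5%) and 10 held GT (27%, 13.8 to 44.1%). The intervals of the classes did not overlap for either pair of letters. This is no test between the classes, since letters and lengths were chosen after the values were seen and sites of a transcript are linked. On the opposite strand the order was turned, with CT in 25 of 210 changes with both alleles (11.9%) and in 14 of 37 homozygous changes (37.8%). The difference was smaller for AC, with 29 of 210 (13.8%) and 9 of 37 (24.3%).

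At 5 bases, each of the 79 changes with both alleles held AG or GT, 72 of them AG. At 4 bases this held for 77 of 81 changes, 64 of them with AG. As written in the table, 56 of the 210 strings began with GT and 53 ended with AG, against 2 and 4 of the 37 homozygous changes. In-frame indels showed a similar difference in AG. Of those of 3 bases with both alleles in both lines, 222 of 241 held AG (92.1%, 88.0 to 95.2%), against 109 of 212 homozygous for the other allele (51.4%, 44.5 to 58.3%). GT was held by 44 of these 241 (18.3%) and 53 of the 212 (25%). At 2 bases, AG was held by 0 of 14 changes with both alleles and 8 of 43 homozygous ones (18.6%). No flanking sequence was used, and whether these changes are splice forms of a transcript was not tested.

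The string GTAG was the most frequent change of 4 bases with both alleles, found at 9 of 47 insertions and 5 of 34 deletions. AGGC followed, at 4 insertions and 4 deletions. Of 45 insertions of 5 bases, 6 were AGTGC and 5 were GTAAG. The strings of GTAG and AGGC were thus found both as bases that the reference transcript lacks and as bases that it has. Among the 46 insertions of 1 base with both alleles, the inserted base was A at 24, and 19 of these followed a C in the reference, as in AK252401.1. Of the 59 insertions of 1 base that were homozygous in both lines, A was inserted at 14, of which 6 followed a C. Deletions of 1 base with both alleles were of G at 9 of 23 sites and of A at 3.

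Where both alleles were present, the other allele was mostly the rarer. Over the 295 sites its share of reads had a median of 31.6% in e35RM (quartiles 23.5 and 45.5%) and 31.7% in e35RD (22.2 and 46.4%). It was below 50% at 232 sites in e35RM and 229 in e35RD. The medians of in-frame indels of this class were 44.1 and 43.3%, and those of single-nucleotide sites 44.8 and 44.4%. Summed over the 295 sites, e35RM had 4872 reads with the reference allele and 2653 with the other, and e35RD had 4851 and 2592. The low share was not that of insertions alone, with medians of 32.8 and 33.3% for insertions and 30.8 and 30% for deletions in e35RM and e35RD. Insertions of 1 base had the lowest medians of the larger groups, with 25.3% in e35RM and 25.1% in e35RD over 46 sites. The 23 deletions of 1 base had 49.0 and 41.9%.

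A read that does not span a repeat fully cannot always be assigned to an allele of an indel. At the 606 sites a median of 97.8% of the read depth in e35RM and 98.1% in e35RD was assigned to an allele, and the lowest values were 28.6 and 30%. Single-nucleotide sites had a median of 100% in both lines. The part of unassigned reads in the low share of the other allele was not tested.

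Among the deepest sites with both alleles, 5 are described first, with 66 to 99 reads per line. At AK373825 position 1113, a deletion of 5 bases, e35RM had 53 reads with the reference allele and 42 with the deletion, and e35RD had 57 and 41. The deletion thus took 44.2% of reads in e35RM (34.0 to 54.8%) and 41.8% in e35RD (31.9 to 52.2%). At AK252401.1 position 423, an insertion of A, e35RM had 68 reference reads and 18 with the insertion, and e35RD had 62 and 24. The lines did not differ at this site beyond counting error (20.9 and 27.9%, p = 0.37, two-sided Fisher's exact test). At MLOC_5591.3 position 99, an insertion of 4 bases, there were 38 and 28 reads in e35RM and 40 and 34 in e35RD. The insertion of G at AK354651 position 91 took 12 of 65 assigned reads in e35RM and 11 of 70 in e35RD. At MLOC_43455.1 position 269, an inserted T was read 13 times beside 45 reference reads in e35RM and 17 times beside 42 in e35RD. A deletion of 4 bases at MLOC_65513.1 position 1340 was tied with the last 2 at 66 reads in its shallower line, with 35 and 31 reads in e35RM and 33 and 30 in e35RD. In these transcripts the lines showed both alleles at similar shares.

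The shares of the lines were alike over the class as a whole. The absolute difference between e35RM and e35RD at the 295 sites had a median of 9.78 percentage points. The share was higher in e35RM at 148 sites, higher in e35RD at 140 and equal at 7. Across the 295 sites the shares had Pearson's r = 0.71 and Spearman's rho = 0.59, given as a description, since the lines share their background and the sites share libraries. For in-frame indels of the class r was 0.86 over 309 sites.

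**Figure D3:**
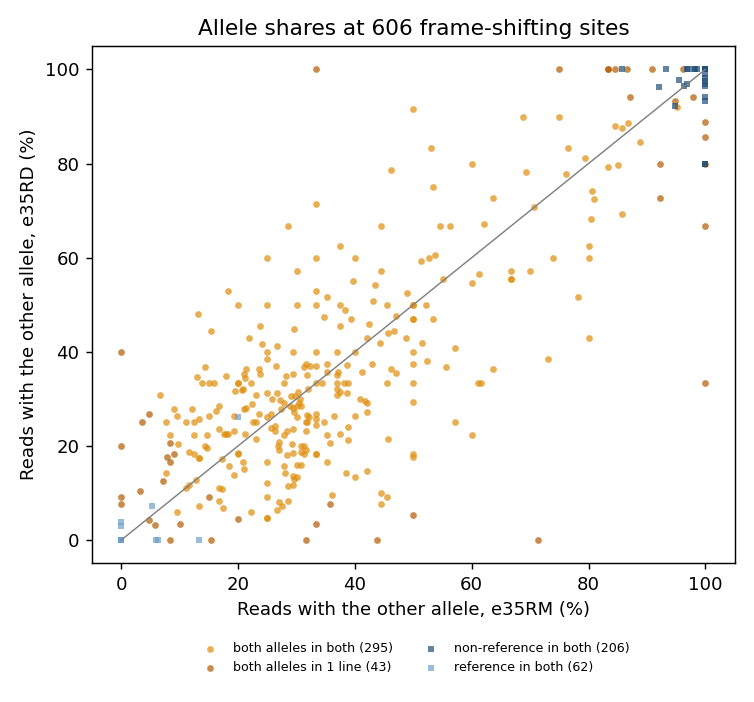
Share of reads with the other allele in e35RD (y axis, %) against e35RM (x axis, %) at the 606 frame-shifting sites with at least 5 reads in each line, 1 point per site and the line of equality in grey. The 295 sites with both alleles in both lines (light orange) scatter around the line with a median share of 31.6% in e35RM, the sites with the same homozygous call in both lines (blue squares) sit mostly at the lower left and upper right, and no site is near 0% in a line and near 100% in the other.

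Homozygous calls for the other allele were supported by nearly all assigned reads. At the 206 sites, e35RM had 18 reference reads against 4958 with the other allele, and e35RD had 18 against 5005. Every assigned read carried the other allele at 194 sites in e35RM and 192 in e35RD, and the lowest share was 85.7 and 80%. Single-nucleotide sites with the same calls in the same transcripts had a median of 100% in both lines as well. The deepest site was a deletion of 4 bases at AK368716 position 161, with 96 reads with the deletion and none without it in e35RM, and 93 and 1 in e35RD. At MLOC_65700.1 position 1512, an insertion of GG was carried by all 76 assigned reads of e35RM and all 85 of e35RD. The deletion of 4 bases at MLOC_76577.1 position 126 was carried by all 67 and 72 assigned reads. The next deepest sites, with 58 to 69 reads of the other allele per line, were insertions of 1 base in AK367505, AK356143, AK250519.1 and MLOC_21522.1, deletions of 1 base in AK360467 and AK366122, and an insertion of 2 bases in AK363708. Of these, AK360467 had 2 reference reads in each line and AK250519.1 had 1 in e35RM. In these 10 transcripts both lines therefore differed from the reference in the same way.

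Long changes were seen with few reads. The insertion of 13 bases at MLOC_39764.1 position 97 was carried by all 6 assigned reads of e35RM and all 7 of e35RD. Deletions of 11 bases were carried by all assigned reads in AK371424 (3 and 4 reads) and MLOC_25946.1 (8 and 5 reads). Deletions of 10 bases in MLOC_12629.1, at position 157, and MLOC_5599.1, at position 258, were listed but found in no read of either line, with 45 and 43 reference reads in the first transcript and 15 in each line in the other. The insertion of 10 bases at MLOC_44288.1 position 223 was carried by all 10 and 8 assigned reads. Both alleles were found at the insertions of 11 bases in MLOC_5850.1 (5 reference and 2 other reads in e35RM, 2 and 4 in e35RD) and of 10 bases in MLOC_56053.1 (5 and 4, and 9 and 1). At MLOC_45431.2 position 109, an insertion of 11 bases, e35RM had 6 reference reads and 3 with the insertion, and all 4 assigned reads of e35RD had the insertion (p = 0.070, two-sided Fisher's exact test). The insertion of 10 bases at MLOC_22199.1 position 229 went the other way, with 4 of 4 assigned reads in e35RM and 2 of 6 in e35RD (p = 0.076, two-sided Fisher's exact test). Of the deletions of 8 bases with both alleles, the deepest lay in AK251846.1 at position 501, with 29 and 21 reads in e35RM and 32 and 12 in e35RD.

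Allele depths were then compared between the lines at each site by a two-sided Fisher's exact test, with Benjamini-Hochberg adjustment over the 40346 sites of all classes. For a call, the adjusted p had to be below 0.05 and the share of the other allele had to lie at or below 0.1 in e35RM and at or above 0.9 in e35RD, or the reverse. Of all sites, 0.131% were called (53 sites), and of the 606 frame-shifting indels none was. The lowest adjusted p among them was 0.92 (Fisher's exact test), so none passed without the limits on the shares either, where 0.136% of all sites did. An unadjusted p below 0.05 was found at 13 of the 606 sites (2.15%), against 0.62% of all sites. The share was similar in in-frame indels, with 16 of 803 (1.99%), and 0.57% in single-nucleotide sites. Such a share is not evidence of a difference at any single site, and it depends on the mix of genotype calls. A site with the same homozygous call in both lines can hardly reach a low p. Both alleles in at least 1 line were called at 55.8% of frame-shifting indels, 41.5% of in-frame indels and 14.8% of single-nucleotide sites. The shares of low p were not compared within sites of that kind. The reads were taken as those of pooled libraries, so the test describes the sequenced pools.

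The 13 sites were no opposite homozygotes. At AK250873.1 position 346, a deletion of 5 bases, e35RM had 12 reads with each allele and e35RD 18 reference reads and 1 with the deletion (unadjusted p = 0.0021, Fisher's exact test; adjusted p = 1). At MLOC_64479.4 position 482, a deletion of 8 bases was carried by 12 of 27 assigned reads in e35RM and 2 of 26 in e35RD (unadjusted p = 0.0041, Fisher's exact test). The insertion of GTAG at MLOC_22624.2 position 233 went the other way, with 3 of 23 reads in e35RM and 12 of 25 in e35RD (unadjusted p = 0.013, Fisher's exact test). The largest difference in share among all 606 sites was at MLOC_11606.4 position 418, an insertion of 7 bases, with 5 of 7 reads in e35RM and 0 of 7 in e35RD (unadjusted p = 0.021, Fisher's exact test). The lowest p of all, 0.0015, belonged to an insertion of 2 bases at MLOC_57846.1 position 165 and rests on an uncertain number. Its allele depth in e35RM is written in the table as 65 and 1, and was restored to 65 and 10 from the read depth of 81, although the call is homozygous reference. With 1 read as written, p was 0.49 (Fisher's exact test) and 12 sites remained below 0.05. It was the only site of the 606 where a zero had been added beside a homozygous reference call.

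Transcripts with several frame-shifting indels were few. A single change was listed in 807 transcripts, 25 had 2 changes and 1 had 3. In 16 of these 26 transcripts the lengths summed to a multiple of 3, so that the frame after the last change would be that of the reference if all were on 1 molecule and coding. The 2 possible frame shifts were about equally frequent over all members (443 and 417), so 2 unrelated changes would sum to a multiple of 3 about as often as not. The count of 16 is therefore no sign of restored frames. In 10 of the 26 transcripts all changes were homozygous for the other allele in both lines and the sum was a multiple of 3 in 5. The lowest depth was only 1 to 3 reads in MLOC_43366.1, MLOC_56140.1, MLOC_35475.1, MLOC_56253.1 and MLOC_15231.1. The 5 with a sum that is a multiple of 3 were MLOC_56253.1, MLOC_35475.1, MLOC_15231.1, MLOC_53907.2 and MLOC_49178.1. Of these, the last 2 had at least 5 reads in each line at all changes. In MLOC_53907.2, a deletion of 2 bases at position 431 was carried by all 19 assigned reads of e35RM and all 28 of e35RD, and a deletion of 1 base at position 599 by 32 and 31 reads. In MLOC_49178.1, an insertion of 1 base at 270 (9 and 6 reads) preceded a deletion of 1 base at 605 (8 and 8 reads). The other 5, whose lengths did not sum to a multiple of 3, included MLOC_36765.5, with deletions of 1 base at positions 134 and 785 that no reference read contradicted in either line (34 and 15 reads, and 41 and 35 reads).

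The closest pair with a sum that is a multiple of 3 lay 4 bases apart in MLOC_56253.1, where a deleted C at position 106 and an inserted A at 110 were seen in 5 reads of e35RM and 2 of e35RD each. In MLOC_20440.1, a deletion of 8 bases at 157 was reference in both lines (20 and 21 reads), and a deletion of 4 bases at 173 was homozygous (30 and 26 reads). The lengths there sum to a multiple of 3, but only 1 of the changes was carried by the lines. In MLOC_35475.1, an inserted G at 128 (1 and 6 reads) and a deleted C at 168 (4 and 9 reads) were homozygous, 40 bases apart. MLOC_76786.1 had a deletion of 1 base at 129 and of 2 bases at 136, without a read in either line. In AK365101, an insertion of 4 bases at 757 (9 of 24 reads in e35RM, 11 of 22 in e35RD) and a deletion of 4 bases at 828 (7 of 31 and 6 of 24 reads) both had both alleles. The most changes, 3, were found in AK356550, a deletion of C at position 225 and insertions at 322 and 776, all with both alleles in both lines at 25 to 59.4% of reads. Also with the most changes by read depth were MLOC_74567.2, with an inserted G at 121 and a deleted A at 469, MLOC_4215.8, with a deleted GTAG at 270 and an insertion of 7 bases at 651, and MLOC_51216.2. In MLOC_51216.2 an insertion of 2 bases at 1977 was homozygous (6 and 5 reads), and an insertion of 1 base at 2119 had both alleles (11 of 55 and 18 of 54 reads).

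Single-nucleotide sites of the same transcripts were called with both alleles more often beside changes of 1 or 2 bases than beside longer ones. Changes of 1 or 2 bases with both alleles in both lines lay in 80 transcripts, of which 55 had a sufficiently covered single-nucleotide site (5 or more reads per line). At least 1 such site with both alleles in both lines was found in 42 of these 55 transcripts, and 50.7% of their 286 sites were of this kind. Changes of 4, 5, 7 or 8 bases with both alleles lay in 207 transcripts, of which 96 had a single-nucleotide site. Only 15 of these 96 transcripts had a site with both alleles, and the share was 12.6% of 341 sites, against 9.71% over the whole table. In 65 of the 96 a single-nucleotide site was homozygous for the other base in both lines. Where the frame-shifting change was homozygous for the other allele in both lines, 4.29% of the 396 single-nucleotide sites had both alleles and 71.5% were homozygous for the other base. Where it was reference in both lines, 60.4% of 154 single-nucleotide sites were reference as well, against 27.2% over the whole table. Transcripts share sites and libraries, so these shares were not tested.

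Over all transcripts, frame-shifting indels had a lower median position than in-frame indels and single-nucleotide sites. The median position was 282 (quartiles 154 and 572) against 441 for in-frame indels (197 and 897) and 327 for single-nucleotide sites (121 and 865). No indel with 1 other allele lay at a position below 81, whatever its filter, while 10843 passing single-nucleotide sites did. From position 81 to 200 lay 35.9% of frame-shifting and 25.9% of in-frame indels, and over position 1000 lay 10.7 and 21.5%. In MLOC transcripts the median was 233 for frame-shifting and 441 for in-frame indels, while in AK transcripts they were alike, with 443 and 441. Single-nucleotide sites had a median of 216 in MLOC transcripts, below that of frame-shifting indels, and of 603 in AK transcripts, above it. Transcript lengths were not used here, so position is not relative to the end of a transcript or to its start codon, and the classes were not tested against each other.

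**Figure D4:**
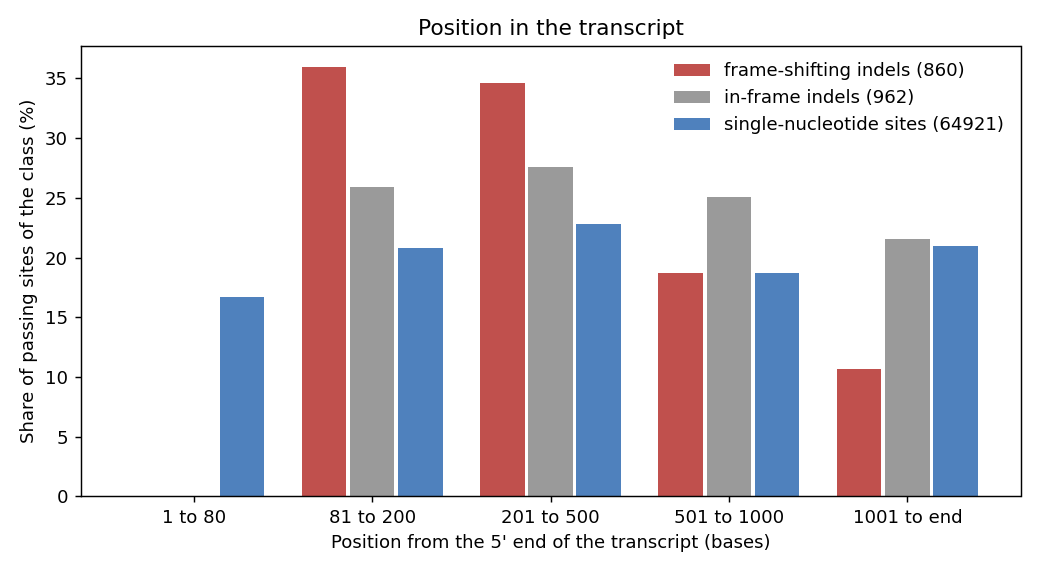
Share of passing sites of each class (y axis, %) by position from the 5′ end of the transcript (x axis, bases). Frame-shifting indels (red) had 35.9% of sites at positions 81 to 200 and 10.7% over 1000, and neither kind of indel was listed at positions 1 to 80.

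Position also differed between the genotype classes. Sites with both alleles in both lines had a median position of 426, and 20.7% of them lay at positions 81 to 200. Sites homozygous for the other allele had a median of 264, with 38.3% at positions 81 to 200, and those with the reference allele in both lines had a median of 185, with 56.5%. In-frame indels showed the same order, with medians of 588, 411 and 333.

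In the QTL region, 64 of the 123 transcripts of the authors' gene list had a site in the table and 9 had a passing indel. Of these indels 4 were frame-shifting and 5 in-frame. Only MLOC_44262.3, annotated by the authors as a pseudouridine synthase family protein, had frame-shifting reads. Pseudouridine synthases convert uridine in RNA to pseudouridine. The deletion of GTAG at position 466 was found in 7 of 26 assigned reads of e35RM (26.9%, 11.6 to 47.8%) and in 4 of 21 of e35RD (19.0%, 5.45 to 41.9%). Both lines were called with both alleles, and the shares did not differ beyond counting error (p = 0.73, two-sided Fisher's exact test). The lines carry opposite alleles at the QTL but had both lengths of this transcript.

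The other frame-shifting changes of the region were not carried by the reads of either line. They lay in low confidence genes without an annotated hit. At MLOC_49446.1 position 122, an insertion of 5 bases, all 7 reads of e35RM and all 9 of e35RD had the reference allele. At MLOC_44727.1 position 191, a deletion of 2 bases, this held for 4 and 7 reads. MLOC_53183.1 position 129 had no read in e35RM and 1 reference read in e35RD. Of the 4 in-frame indels with opposite calls in all transcripts, 3 lay in this region. The zinc finger protein 3 gene MLOC_54434.1 had 11 listed sites from position 54 to 533, none of them an indel. The start of that transcript up to position 80 falls in the stretch where no indel with 1 other allele is listed for any transcript. By Sanger sequencing, the paper reports an AG insertion in this gene in the NILs with short awns. According to the paper, it shifts the frame and brings an early stop codon. The position that the paper gives for the insertion lies in the stretch without listed indels, if it is counted from the start of the transcript. The paper also reports a polymorphism of this gene in its variant calling, which its Discussion describes as a small deletion. Neither the insertion nor the deletion is among the listed sites of this gene. The cause of this difference from the paper was not tested. The bromodomain gene AK358955 had no listed frame-shifting indel.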

How the data were processed

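Trimmed single-end reads had been aligned by the authors with Bowtie2 against the high and low confidence barley genes. After duplicate removal, sites were called with GATK (UnifiedGenotyper) and deposited as 1 table. Read depth and allele depths in it are deposited counts of reads per site and line, taken as those of the 4 libraries of a line pooled, without normalization. Genotype quality is a phred-scaled score of the authors' caller. For the sites here, depth gives the precision, and intervals and limits cover counting error only. The 5 columns of a Morex sample were not used. A spreadsheet program had turned calls into dates and dropped last zeros of allele depths. Calls were restored, and zeros were added to bring allele depths closest to the read depth, at 37 and 53 of the 823 and 821 allele depths of members in e35RM and e35RD. At all of these, more than 1 number of zeros was possible within the read depth. At 9 members in the rows at hand of the authors' SNP table, calls and allele depths were equal, and the decoding and the test were tested on simulated data. The simulation did not model sites with a low share of assigned reads, which went down to 28.6% in e35RM and 30% in e35RD.

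Sites with at least 5 reads in each line were used. Groups are the lines e35RM and e35RD. Fisher's exact tests and Clopper-Pearson intervals were computed with SciPy 1.17.1 and Python 3.11.15. The members and lists were chosen with earlier results of these data known. Named are members in the QTL gene list, MLOC_54434.1 or AK358955, members with opposite or called alleles, the 10 deepest homozygous for the other allele, the 5 longest insertions and deletions each, the 5 transcripts with most members and the 5 closest sets whose lengths sum to a multiple of 3, and 5 of the deepest with both alleles, where ties in depth were taken in order of identifier. MLOC_65513.1 and MLOC_22199.1, tied in depth or length with named members, were added after their values were seen. Sites of frequent strings and sites with an unadjusted p below 0.05, and other transcripts with several homozygous changes, were chosen after their values were seen. Alternatives were other limits of read depth, genotype quality and allele share, sites that failed the filter or had several other alleles, and other counts of reads. The barley reference table at hand did not hold these transcript identifiers, so no coordinates in the genome, coding starts or flanking sequences were used.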

Additional observations from a re-analysis of the deposited data

How the results depend on the processing

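No paired analysis was possible because the table has 1 column per line and not 1 per library, and for the same reason no library could be left out. No frame-shifting indel was called by the allele depth test under any of the alternatives, which were read depths of at least 1, 10 and 20, limits of 0.2 and 0.8 or no limits, other reads taken as read depth less reference reads, sites that failed the filter included, and, chosen after seeing the data, no added zero beside a homozygous reference call. Opposite homozygous calls stayed at 0 under all alternatives except a read depth of at least 1, with 4 sites. With sites that failed the authors' filter included there were 1573 frame-shifting indels, 337 homozygous for the other allele in both lines, 608 with both alleles in at least 1 line, and a share of 56.0% of all indels. Of the 713 added sites, 688 had failed the filter for clusters of SNPs. With at least 20 reads in each line, 298 sites were left, 93 of them homozygous for the other allele and 179 with both alleles in at least 1 line (338 at 5 reads). With at least 1 read, 327 sites were homozygous for the other allele, and with a genotype quality of at least 60 there were 87. The frame-shifting share of indels fell with depth, to 43.0% at 5 reads and 36.6% at 20 reads. Changes of 1 base made up 59.2% of the sites homozygous for the other allele in both lines. Restricted to such sites, 5 transcripts had several changes with a sum that is a multiple of 3, in place of 16. Depth limits the shares at single sites, with a median of 21 or 22 reads per line, and the cause of the other shifts was not tested.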
